A study of Mus musculus with 48 samples.

Results

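Astrocytes are the star-shaped glia that take up neurotransmitter, buffer potassium and feed and shape synapses, and the comparison described here sets those of the mouse olfactory bulb against those of the cerebral cortex at postnatal day 14 (P14). It rests on 7 of the series' 48 bulk RNA-seq libraries, 3 labelled as P14 olfactory bulb astrocytes and 4 as P14 cortical astrocytes, chosen by their age and tissue labels. The labels of these 7 libraries give no genotype, treatment, sorting gate or number of animals, so p-values measure the spread between libraries, which may be technical. The same genes were followed in 3 bulb and 3 cortex libraries of P1, labelled in the same way, and in 3 bulb and 4 cortex libraries of P28 animals labelled Gabbr1 control. At P28 the 3 bulb libraries and 2 of the 4 cortex libraries carry the label tamoxifen, and the other 2 cortex libraries carry no treatment label. The series as a whole profiles astrocytes of several forebrain regions over development and after loss of Gabbr1, the ligand-binding subunit of the metabotropic GABA-B receptor.

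The olfactory bulb receives new interneurons throughout life. They are born in the subventricular zone along the lateral ventricle, migrate into the bulb as chains of neuroblasts and mature into granule and periglomerular cells that release GABA. Bulb astrocytes thus sit among inhibitory and dopaminergic interneurons and the dendrites of mitral cells, whereas cortical astrocytes sit among mainly glutamatergic pyramidal neurons. Astrocytes remove synaptic glutamate through the transporters Slc1a2 and Slc1a3 and GABA through carriers such as Slc6a11, and they sense both transmitters through receptors of their own. The homeodomain and zinc finger factors that pattern the embryonic forebrain into a pallial (cortical) and a subpallial (basal ganglia and septal) territory continue to be expressed in the glia of each territory.

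Levels below are rescaled reads, that is, reads of a gene divided by a factor per library so that the 7 libraries are comparable. They are not divided by gene length, so they compare libraries for a gene and not genes with each other. Differences are bulb minus cortex in mean log2(rescaled reads + 1), given with their standard error, and values per library follow the order of the replicate numbers. A gene was called higher or lower where its Benjamini-Hochberg adjusted p in limma was under 0.05. Because only genes with a mean of at least 10 rescaled reads over the 7 libraries were tested, a gene that is absent from a region was tested only if it was high enough in the other.

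Astrocyte markers were present in all 7 libraries. Slc1a2, the main glutamate transporter of astrocytes (chr2:102658239-102790784 of GRCm38.p6), was the most abundant gene in each of the 7 libraries, with 11.2 to 12.4% of reads in cortex and 2.43 to 2.83% in bulb. Aldh1l1, a folate enzyme used as a general astrocyte marker, stood at 649.7, 779.8 and 761 rescaled reads in the bulb libraries and 1267, 1363, 1127 and 1221 in the cortex libraries. Aqp4, the water channel of astrocyte endfeet, stood at 25011, 23146 and 20385 in bulb and 11030, 11272, 10561 and 11680 in cortex. Aldh1l1 was higher in every cortex library and Aqp4 in every bulb library, with no overlap between regions.

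The cortex libraries were deeper, with 7838934 to 15008466 reads against 1773226 to 2669394 in bulb, of which the ribosomal gene Rn45s, left out of the tests, took 19 to 21.3% and 15.5 to 20%. A single read was worth 1.91 to 2.78 rescaled reads in a bulb library and 0.378 to 0.780 in a cortex library, so low bulb levels rest on very few reads. The bulb libraries differed more from each other, with a coefficient of variation beyond counting noise (edgeR's common dispersion) of 47% against 25% in cortex. Correlations of log2 levels across genes were at most 0.837 within bulb, 0.943 to 0.957 within cortex and 0.761 to 0.809 between regions. The bulb and cortex libraries of P14 carry separate runs of library numbers and come from separate tables, so region and library set cannot be told apart at P14. With all libraries thinned to 1498834 reads, 3105 genes were called.

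Of 11603 genes tested, 3656 differed between bulb and cortex (31.5% of those tested). In the bulb, 1803 were higher (15.5%) and 1853 were lower (16%). Differences of at least 2-fold were called for 1038 higher and 1262 lower genes. The groups did not overlap for 4480 genes (38.6% of those tested). The split between directions depended on the scaling. It was 2621 higher and 1319 lower when libraries were scaled to their total, which moved the median of all genes from -0.057 to 0.16, and 1294 higher and 2415 lower on the deposited scaling, with a median of -0.23. Genes described as higher or lower in bulb therefore are so relative to the bulk of genes. Because these are bulk samples, fewer cells of a type and less RNA per cell cannot be told apart in anything that follows.

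**Figure D1:**
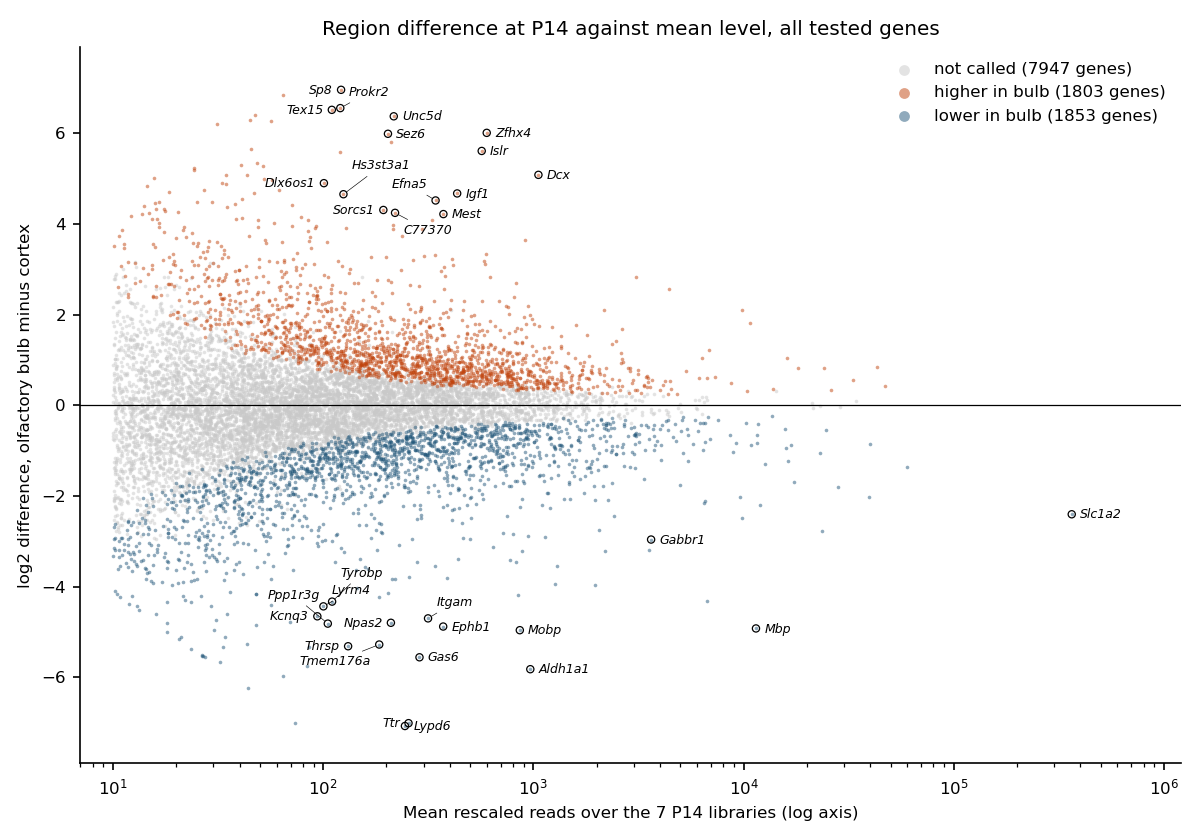
Each point is a gene tested at P14, with its mean over the 7 libraries in rescaled reads on a log axis and its difference (bulb minus cortex, log2) on the vertical axis. Colours separate the 1803 genes higher in bulb, the 1853 lower in bulb and those not called, and the labels mark the 15 largest rises and falls with Gabbr1 and Slc1a2. The called genes lie on both sides of 0 across the range of levels.

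The 15 genes with the largest rises, among called genes at or above the median level whose groups did not overlap, ran from Sp8 at 6.96 ± 0.61 (SE) down to Mest at 4.21 (adjusted p at most 2.37e-05). Sp8, a zinc finger factor of the subpallial lineage that gives rise to bulb interneurons (chr12:118846288-118852578), stood at 294, 216 and 335 rescaled reads in the bulb libraries and 0.923, 0.780, 0.756 and 3.20 in the cortex libraries. It had 10 reads in the 4 cortex libraries together and 394 in the 3 shallower bulb libraries (adjusted p = 3.26e-06). Prokr2, a prokineticin receptor required for the bulb to form (chr2:132369705-132385502), stood at 261, 388 and 184 in bulb and 2.77, 0, 1.13 and 7.04 in cortex, with 1 cortex library at 0. Zfhx4, a large zinc finger homeodomain protein (chr3:5218218-5415861), stood at 1111, 1506 and 1497 and 18.5, 19.5, 32.1 and 14.1, a ratio of means of 65.1. These 3 genes were thus at or near the limit of detection in cortex, or low, and present in every bulb library.

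Several of the largest rises encode surface receptors or secreted proteins. Unc5d, a netrin receptor (chr8:28646717-29219671), was higher by 6.37 ± 0.57, and Efna5, a membrane-bound ephrin that repels growing axons (chr17:62602957-62881317), by 4.52 ± 0.31. Islr, an immunoglobulin and leucine-rich repeat protein (chr9:58156246-58159236), stood at 1530, 1219 and 1117 in bulb and 13.9, 33.6, 33.6 and 25.6 in cortex. Igf1, the insulin-like growth factor (chr10:87858265-87937047), stood at 1116, 665 and 1102 and 28.2, 22.6, 42.3 and 60.2, or 25.1 times higher in bulb by the means. Sez6, a neuronal complement-repeat protein, differed by 5.99, Sorcs1, a sorting receptor, by 4.31, and Hs3st3a1, a sulfotransferase that modifies heparan sulfate, by 4.65. The remaining members were Tex15, known from meiosis (6.51), C77370, named Nexmif in RefSeq and known for its part in neurite growth (4.24), the imprinted gene Mest, the neuroblast gene Dcx (5.08) and the non-coding RNA Dlx6os1 (4.90), which is transcribed across the Dlx6 locus from the other strand. Strand-specific counting is not given in the sources used here, so reads of Dlx6os1 and Dlx6 may be mixed.

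Genes of migrating neuroblasts and bulb interneurons moved with these rises. All 12 tested members of that marker list were higher in bulb, with a median of 3.80 (all genes: -0.057; 15.5% called higher). Of these members, at least Sp9, Dlx1, Dlx2, Dlx5 and Synpr were low in cortex and passed the filter only through bulb. Such members could come out only as higher or not called, so the count and the median are partly set by the filter. The summed level of the list ran from 3634 to 6599 in bulb and from 476 to 552 in cortex. Dcx, a microtubule-binding protein of migrating neurons, stood at 1946, 3281 and 1897 in bulb and 80.8, 57.7, 72.2 and 59.5 in cortex. Sox11, a factor of immature neurons, stood at 897, 2005 and 1163 and 234, 367, 262 and 278, and Synpr, a synaptic vesicle protein of granule cells, at 47.2, 170.1 and 78.6 and 3.23, 2.34, 0.378 and 1.28. The level of Dcx in bulb was thus above that in any cortex library by more than an order of magnitude, while Sox11 was also present in every cortex library. The part of such cells in the rises was not tested.

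**Figure D2:**
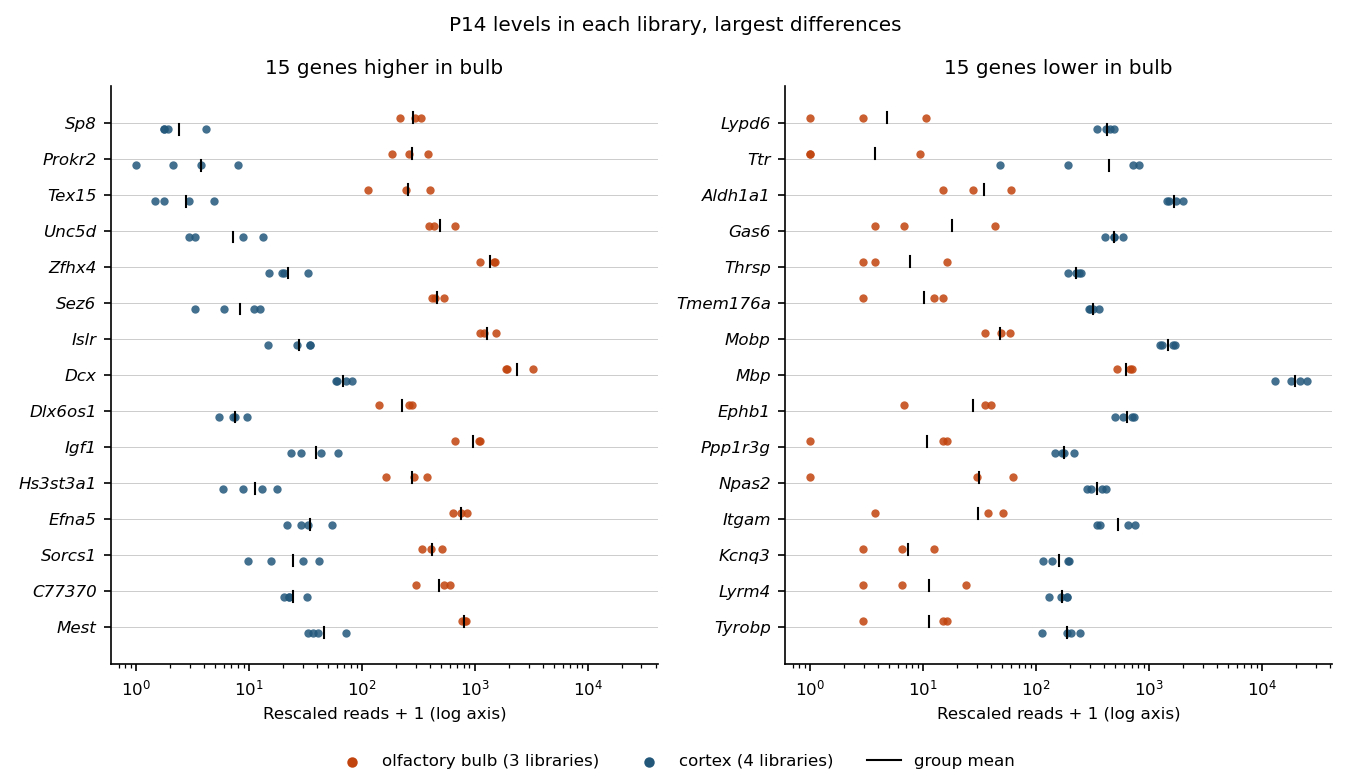
Level of the 15 largest rises and 15 largest falls in each of the 7 libraries, as rescaled reads + 1 on a log axis, with points for libraries and bars for the group means. The 3 bulb and 4 cortex points do not overlap for any of the 30 genes, as the choice of genes required, and Lypd6, Npas2 and Ppp1r3g are at 0 in 1 bulb library each and Ttr in 2.

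The 15 largest falls ran from Lypd6 at -7.08 ± 0.62 (SE) to Tyrobp at -4.33. Lypd6, a lipid-anchored protein that modulates nicotinic acetylcholine receptors (chr2:50066400-50193569), stood at 454, 489, 342 and 417 in cortex and 0, 9.56 and 1.92 in bulb, where 6 reads were found in all. Aldh1a1, an enzyme that makes retinoic acid (chr19:20492583-20643463), stood at 1989, 1735, 1452 and 1490 in cortex and 13.9, 59.2 and 26.8 in bulb, a ratio of 50. Gas6, the secreted ligand of the TAM receptors that bind dying cells (chr8:13465374-13494535), stood at 487, 406, 484 and 583 in cortex and 2.78, 5.73 and 42.2 in bulb. Its receptor Mertk was lower too, at 1424, 1270, 1130 and 1333 in cortex and 405, 411 and 351 in bulb (difference -1.73 ± 0.13, adjusted p = 9.51e-07). The groups did not overlap for Mertk (all genes: 38.6%), whereas the choice of genes required this of Lypd6, Aldh1a1 and Gas6.

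Other falls were metabolic genes, signalling genes and a channel. Thrsp, a nuclear regulator of fatty acid synthesis (chr7:97412933-97417550), differed by -5.32 ± 0.54, and Ppp1r3g, a subunit that targets a phosphatase to glycogen (chr13:35958824-35970388), by -4.82 ± 0.79. Lyrm4, a mitochondrial protein of iron-sulfur cluster assembly that lies next to Ppp1r3g (chr13:35978797-36117357), differed by -4.44. Npas2, a partner in the circadian clock, differed by -4.80 ± 1.0. The bulb libraries held 0, 28.7 and 61.3 against 305, 282, 380.3 and 412 in cortex, so that 1 bulb library had no read. Ephb1, an ephrin receptor (chr9:101922128-102354693), differed by -4.88 ± 0.49, Kcnq3, a potassium channel subunit, by -4.66, and Tmem176a, a membrane protein, by -5.28. Ttr, the thyroid hormone carrier made by choroid plexus, had 3 bulb reads against 2708 in cortex, a cortex-to-bulb ratio of 166 with a 95% counting interval of 56.6 to 804. Its cortex levels were 192, 819, 47.3 and 716, a wide spread for libraries of 1 group.

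Of the 15 falls, 4 are markers of other glia. Mbp and Mobp are myelin proteins of oligodendrocytes, and Itgam and Tyrobp are a surface integrin and a signalling adaptor of microglia. Mbp stood at 12984, 25174, 18255 and 21867 in cortex and 519, 699 and 673 in bulb (-4.92 ± 0.18), and Mobp at 1239, 1629, 1311 and 1712 and 58.3, 34.4 and 47.9 (-4.96 ± 0.21). All 9 tested members of the mature oligodendrocyte list were lower in bulb by limma (16% of all genes), 7 by edgeR and 8 with total-read scaling, with a median of -3.59, or -2.86 with Mag, which had no bulb read, at its lower bound of 7.27-fold, set by 3 reads per library. The summed level of the list was 18921 to 32709 in cortex and 2742 to 3196 in bulb.

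Itgam stood at 348, 752, 371 and 647 in cortex and 2.78, 36.3 and 49.8 in bulb (-4.70 ± 0.69), and Tyrobp at 113, 242, 185 and 201 and 13.9, 15.3 and 1.92 (-4.33 ± 0.57). Of 12 microglial and macrophage markers tested, 11 were lower in bulb (16% of all genes), with a median of -3.23. Their sum was 2176 to 4773 in cortex and 489 to 753 in bulb. Csf1r, the receptor that keeps microglia alive, stood at 459, 737, 623 and 1023 and 30.5, 107 and 80.5, and Aif1, a microglial actin-binding protein, had 2 bulb reads against 386 in cortex (ratio 35.4, interval 9.74 to 294). Trem2, the member that was not called, stood at 17.5, 25.7, 20.4 and 57 in cortex and 19.4, 7.64 and 9.58 in bulb. With the genes of both lists left out of scaling and test, 3636 genes were called. Other RNA of these cells stays in the libraries, so that count cannot show their part. The part of these cells in the falls of other genes was not tested.

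Factors of subpallial, septal and bulb identity were mostly higher in bulb. Of 18 tested members, 14 were higher and 1 was lower (all genes: 15.5% and 16%), with a median of 2.03. Sp9, Dlx1, Dlx2 and Dlx5 of this list also stand in the neuroblast list above and, like Sp8 and Otx2, passed the filter only through bulb. Zic1 and Zic4, of a factor family that marks septal and midline forebrain tissue, are in no cell type list here, and not every Zic gene of the list was higher. Zic1 stood at 322, 420.5 and 435 in bulb and 32.8, 101, 63.1 and 106 in cortex (2.48 ± 0.36, adjusted p = 2.15e-04), and Zic4 differed by 2.30 ± 0.54. Both genes were higher in every bulb library than in any cortex library.

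Other members of the list were higher too. Etv1, an ETS factor of granule and periglomerular lineages, stood at 1849, 1649 and 1849 in bulb and 439.6, 498, 593 and 589 in cortex (1.76 ± 0.14). Meis2, a homeodomain cofactor of bulb interneurons, stood at 1022, 881 and 962 and 606, 605, 589 and 571 (0.68 ± 0.12), Tshz1, a zinc finger factor of the same lineage, at 372, 445 and 506 and 181, 143, 183 and 162 (1.39 ± 0.19), and Pax6, needed for dopaminergic periglomerular cells, differed by 1.26 ± 0.30. Otx2, a homeodomain factor, had 1 read in the 4 cortex libraries and 224 in bulb (bulb-to-cortex ratio 1220, interval 217 to 48407), with 72.2, 273 and 105 rescaled reads in the bulb libraries. Sp9, related to Sp8, had 3 cortex and 81 bulb reads (ratio 147, 48.6 to 728). Nr2e1, or Tlx, a nuclear receptor of neural stem cells, was the member that was lower, at 361, 434 and 450.4 in bulb and 846, 913, 882 and 823 in cortex (-1.06 ± 0.13).

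Factors of pallial and cortical identity split. Of 17 tested, 7 were higher and 6 lower in bulb (all genes: 15.5% higher and 16% lower). Emx2, a homeodomain factor that patterns the cortex (chr19:59458690-59465357), stood at 417, 446, 384 and 481 in cortex and 97.2, 78.4 and 55.6 in bulb (-2.50 ± 0.22). Nr2f1, a nuclear receptor that sets cortical areas, stood at 269, 257, 240.1 and 272 and 30.5, 9.56 and 30.7 (-3.57 ± 0.38), while the related Nr2f2, known from caudal and ventral forebrain, stood at 50.8, 21.1, 54.1 and 32.6 in cortex and 164, 214 and 125 in bulb (2.11 ± 0.39). The 2 related receptors thus lay on opposite sides. Lhx2 (-1.26 ± 0.16) and Lef1 (-2.15 ± 0.36), a mediator of Wnt signalling, were lower in bulb. Id4 (1.54 ± 0.19), Pou3f2 (1.04 ± 0.16) and Bcl11b (3.43 ± 0.70), which bulb granule cells also express, were higher.

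The promoters of 3 genes are shown because Sp8 is the largest rise, Dlx6os1 lies in the Dlx cluster and Gabbr1 is the gene of the study. They were chosen after the values were seen. Capitals mark TAATTA, a core bound by homeodomain factors such as the Dlx proteins, which reads the same on both strands. TTGGCA, the core of the site of nuclear factor I, a factor family of astrocyte development, was searched on both strands too, does not overlap TAATTA and was not found in the 3 stretches. Sequences run 5′ to 3′ on the gene's strand and come from RefSeq, assembly GRCm38.p6. Those of Dlx6os1 and Gabbr1 end at an annotated start. Sp8 has 3 annotated starts, of which the one with a match is shown. Its stretch is cut where an exon of another transcript begins, so it ends short of that start. The Sp8 and Dlx6os1 stretches lie inside the spans of their genes and not before them.

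Sp8 (chr12:118847309-118847537, plus strand): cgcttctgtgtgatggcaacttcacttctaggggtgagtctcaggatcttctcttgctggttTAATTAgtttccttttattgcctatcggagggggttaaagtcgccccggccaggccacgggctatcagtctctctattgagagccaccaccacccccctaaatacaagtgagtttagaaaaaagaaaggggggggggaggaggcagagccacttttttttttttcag

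Dlx6os1 (chr6:6869534-6869783, minus strand): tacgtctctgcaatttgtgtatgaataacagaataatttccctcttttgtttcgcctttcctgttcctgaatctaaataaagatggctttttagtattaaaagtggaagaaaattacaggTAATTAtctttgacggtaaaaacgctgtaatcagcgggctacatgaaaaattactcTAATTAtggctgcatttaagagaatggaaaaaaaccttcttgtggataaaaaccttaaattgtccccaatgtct

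Gabbr1 (chr17:37045716-37045965, plus strand): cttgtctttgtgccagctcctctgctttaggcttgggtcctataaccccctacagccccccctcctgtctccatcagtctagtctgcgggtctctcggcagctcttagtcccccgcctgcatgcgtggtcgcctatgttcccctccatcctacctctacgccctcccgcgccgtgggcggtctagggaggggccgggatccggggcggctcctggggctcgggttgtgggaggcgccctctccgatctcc

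The Sp8 stretch of 229 bases holds 1 TAATTA, the Dlx6os1 stretch of 250 bases holds 2, and the Gabbr1 stretch of 250 bases holds neither motif and has a GC content of 66%. Of the 15 largest rises, 10 had a promoter in the table, with 16 promoters together, and 3 of these genes held TAATTA at any promoter (Dcx, Dlx6os1 and Sp8). Of 11 falls, with 13 promoters, 0 did. TTGGCA was in 2 of the rises (Dcx, and Sp8 at another of its starts) and in 4 of the falls (Aldh1a1, Npas2, Thrsp and Tmem176a). Over all promoters of the table TAATTA was in 4.84% and TTGGCA in 12.3%. TAATTA was in 2.55% of promoters of genes tested, 3.62% of those of genes higher in bulb, 2.13% for genes lower and 2.41% for genes not called. For TTGGCA the shares in the same order were 9.83%, 9.58%, 11.3% and 9.54%. These shares count promoters, whereas the counts of rises and falls above count genes, so the 2 are unlike measures. A match of letters is a description and not a binding site.

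Both GABA-B receptor subunits were lower in bulb, while an auxiliary protein of the receptor and a GABA transporter were higher. Gabbr1 (chr17:37045966-37074305) stood at 5514, 6080, 5364 and 6215 rescaled reads in the cortex libraries and 822, 615 and 803 in the bulb libraries, 7.76 times higher in cortex by the means (difference -2.96 ± 0.12, adjusted p = 2.40e-09). Gabbr2, the partner subunit that couples to the G protein (chr4:46662318-46991714), stood at 2411, 3319, 2329 and 3030 in cortex and 883, 1374 and 885 in bulb (-1.42 ± 0.17, adjusted p = 4.36e-05). Every cortex library was above every bulb library for both subunits. Kctd12, a protein that binds the receptor and speeds its desensitisation, went the other way, with 5953, 5883 and 6353 in bulb and 637, 1070, 827 and 911 in cortex (2.84 ± 0.15, adjusted p = 2.95e-08). Slc6a11, the GABA transporter GAT-3 (chr6:114131241-114249886), stood at 17003, 19108 and 18148 in bulb and 5059, 5285, 4757 and 5553 in cortex (1.81 ± 0.078, adjusted p = 6.41e-09). The regions did not overlap for any of these 4 genes.

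Over the GABA list, 8 of 23 tested members were higher, 6 lower and 9 not called, with a median of 0.67 (all genes: 15.5% higher, 16% lower, median -0.057). Enzymes that degrade GABA or make it from putrescine were lower in bulb. Abat, the transaminase that breaks GABA down, differed by -1.05 ± 0.081, Aldh5a1, which removes its product, by -0.80 ± 0.10, and Maob, the monoamine oxidase that makes GABA from putrescine in astrocytes, by -2.20 ± 0.37. The synthetic enzymes Gad1 (2.99 ± 0.77) and Gad2 (3.11 ± 0.46), which are markers of interneurons and stand in the neuroblast list too, were higher, with 214, 239 and 99.7 rescaled reads of Gad2 in bulb and 13.9, 17.9, 14 and 37.1 in cortex. The level of that list beside them is given above, and its part was not tested.

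Most glutamate receptor genes that differed were higher in bulb, while the metabotropic receptor Grm3 and the transporter Slc1a2 were lower. Of 16 tested members of the glutamate list, 9 were higher and 2 lower, with a median of 1.13 (all genes: 15.5% higher and 16% lower). That list holds Grm3 but not Slc1a2, Slc1a3 or Grin2c, which stand in the maturation list below. Neuroblast and interneuron markers, summed above, were higher in the same libraries, and their part in these differences was not tested. Of the AMPA receptor subunits, Gria1 (chr11:57011571-57330244) stood at 1996, 1582 and 2190 in bulb and 166, 176, 142 and 129 in cortex (3.64 ± 0.17, adjusted p = 1.11e-08). Gria2, which makes the channel impermeable to calcium, stood at 3898, 4170 and 3524 and 903, 915, 894 and 859 (2.11 ± 0.10). Gria3 differed by 2.63 ± 0.22 and Gria4 by 3.74 ± 0.33, so all 4 AMPA subunits were higher in every bulb library than in any cortex library. The NMDA receptor subunits Grin3a (1.68 ± 0.16) and Grin2b (2.43 ± 0.48) were higher as well, and Grin2c, the NMDA subunit typical of mature astrocytes, was lower (707, 779, 873 and 773 in cortex and 99.95, 51.6 and 195 in bulb, -2.95 ± 0.33).

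Of the metabotropic receptors, Grm5, coupled to calcium release in young astrocytes, stood at 1849, 1573 and 1623 in bulb and 369.9, 456, 412 and 455 in cortex (1.99 ± 0.13, adjusted p = 2.82e-07). Grm3, coupled to the inhibition of cyclic AMP, stood at 2460, 2142 and 1736 in bulb and 6037, 8495, 6695 and 7232 in cortex (-1.75 ± 0.13, adjusted p = 8.95e-07). The receptors for glutamate thus differed in both directions. Slc1a2 stood at 525146, 567928, 531873 and 607570 in cortex and 100920, 115745 and 99491 in bulb (-2.41 ± 0.068, adjusted p = 1.57e-10), and Slc1a3, the second astrocyte transporter, was higher in bulb, at 45246, 40526 and 35889 against 28872, 28312, 24696 and 27398 (0.57 ± 0.083). Quantile normalization gives Slc1a2 the same value in all libraries, since it ranks first in each, and so a difference of 0.

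**Figure D3:**
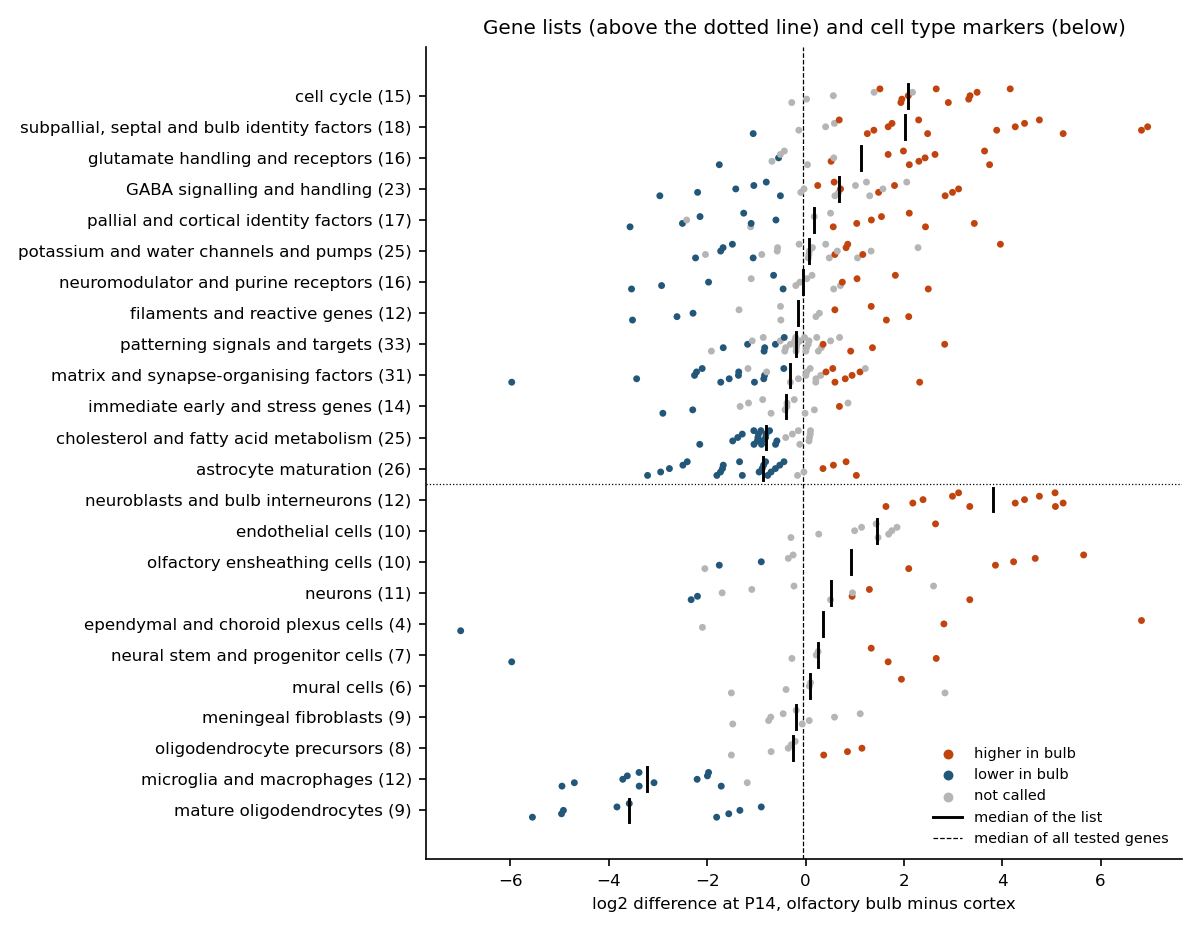
Difference (bulb minus cortex, log2) of each tested member of the gene lists at P14. A bar marks the median of each list and a dashed line the median of all tested genes (-0.057). Coloured points are called genes, by direction, and grey points are genes not called. Programs stand above the dotted line and cell type markers below it, where neuroblast markers lie to the right and oligodendrocyte and microglial markers to the left.

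Genes that rise as astrocytes mature were mostly lower in bulb. Of 26 members, all tested, 20 were lower and 4 higher (all genes: 16% and 15.5%), with a median of -0.87. Ndrg2, an astrocyte-enriched cytoplasmic protein, stood at 42673, 35235, 33432 and 37495 in cortex and 5778, 5519 and 5038 in bulb (-2.77 ± 0.087, adjusted p = 3.18e-10). Clu, a secreted chaperone, stood at 18930, 13083, 13514 and 15098 and 2818, 2689 and 2484 (-2.49 ± 0.11), and Ntsr2, the neurotensin receptor of astrocytes, at 4170, 3094, 3230 and 3719 and 389, 493 and 286 (-3.21 ± 0.17). Aldoc, a glycolytic aldolase, differed by -1.69 ± 0.082, S100b, a calcium-binding protein, by -1.73 ± 0.13, Cst3, a protease inhibitor, by -1.80 ± 0.069, and Apoe, the lipid carrier, by -0.94 ± 0.085. The gap junction protein Gjb6 (-1.34 ± 0.16) and the receptor Fgfr3 (-1.29 ± 0.13) were lower too. Kcnj10, the inward rectifier potassium channel Kir4.1, differed by -0.52 ± 0.075 and by 0.045 under quantile normalization (adjusted p = 0.527), and kept its direction under the other scalings.

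The members that were higher included Aqp4 (1.03 ± 0.078), Slc4a4, a bicarbonate transporter (34340, 33308 and 28748 in bulb and 17357, 18871, 17380 and 18866 in cortex, 0.82 ± 0.075), and Slc1a3. Aqp4 is bound to endfeet on vessels and Slc4a4 sets the pH around synapses. Gfap, the intermediate filament of reactive and fibrous astrocytes, was not called (-0.16, or 0.060 with libraries scaled to their totals), at 789, 877 and 763 in bulb and 939, 893, 878 and 911 in cortex.

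Fabp7, Vim and Nes, genes of immature glia, were higher in bulb. Fabp7, a fatty acid binding protein of radial glia that olfactory ensheathing glia also make, stood at 21298, 15532 and 15640 in bulb and 3438, 4117, 4088 and 4608 in cortex (2.10 ± 0.12, adjusted p = 8.75e-08). Vim, the intermediate filament vimentin, stood at 1027, 805 and 1098 and 258, 289, 439 and 279.7 (1.64 ± 0.19), and Nes, nestin, at 192, 277 and 247 and 81.3, 71, 154 and 83.9 (1.33 ± 0.29). Stat3, a mediator of reactive gliosis, was higher by 0.60 ± 0.14, whereas S100a6 (-2.61 ± 0.48) and Cd44 (-2.29 ± 0.49), a hyaluronan receptor, were lower. Over the list of filaments and reactive genes, 4 of 12 were higher and 3 lower (all genes: 15.5% higher and 16% lower).

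Of 15 cell cycle genes tested, 10 were higher in bulb and 0 lower, with a median of 2.09 (all genes: 15.5% higher and 16% lower). Top2a, a topoisomerase of dividing cells, stood at 458, 1120 and 531 in bulb and 33.2, 59.3, 107 and 80 in cortex (3.32 ± 0.38, adjusted p = 3.50e-05). Mki67, the proliferation marker Ki-67, stood at 342, 808 and 351 and 45.7, 60.9, 127 and 75.5 (2.66 ± 0.37), and Ccna2, a cyclin of S phase, at 139, 224 and 139.9 and 6.93, 2.34, 29.9 and 7.68 (4.16 ± 0.66). The second bulb library was the highest of the 7 for Top2a, Mki67 and Ccna2, and it was also the highest for Dcx and Sox11. In the stem and progenitor list, 3 of 7 were higher and 1 lower. The lower member was Thbs4, a matrix protein made by astrocytes of the subventricular zone, with 1 bulb read against 958 in cortex (ratio 176, interval 31.5 to 6954). Which cells of the samples divided was not tested.

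Genes of cholesterol and fatty acid synthesis were lower in bulb or not called. Of 25 members, all tested, 17 were lower and 0 higher (all genes: 16% lower), with a median of -0.81. With libraries scaled to their totals the list held 16 lower and 2 higher. Scd1, a fatty acid desaturase, stood at 8991, 9916, 8956 and 10947 in cortex and 2640, 2074 and 1880 in bulb (-2.15 ± 0.12, adjusted p = 4.50e-08), and the related Scd2 at 29460, 29162, 28292 and 31576 and 13696, 15182 and 13986 (-1.05 ± 0.067). Of the sterol pathway, Hmgcs1, its first committed synthase, differed by -0.81 ± 0.097 and Cyp51, a lanosterol demethylase, by -1.38 ± 0.14. Fasn, fatty acid synthase, differed by -0.89 ± 0.10, Insig1, the sterol sensor, by -0.91 ± 0.16, and Srebf2, the factor that drives the pathway, by -1.05 ± 0.22. Myelin-forming oligodendrocytes use this pathway too, and their markers, summed above, were lower in the same libraries. Their part in these differences was not tested.

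Secreted matrix and synapse-organising proteins were lower more often than higher. Of 31 tested, 13 were lower and 7 higher, with a median of -0.31 (all genes: 15.5% higher and 16% lower). Sparc, which limits synapse formation, stood at 8829, 10499, 9189 and 10469 in cortex and 1852, 2546 and 2455 in bulb (-2.10 ± 0.11), and the related Sparcl1, or hevin, which promotes it, at 88303, 84424, 71153 and 81921 and 34628, 31114 and 29064 (-1.37 ± 0.081). Both were lower in bulb although they act in opposite ways on synapses. Bcan, a proteoglycan of perineuronal nets, differed by -1.04 ± 0.091, and Htra1, a secreted protease, by -1.36 ± 0.11. On the other side, the proteoglycan Vcan (1.11 ± 0.20), the phagocytic receptor Megf10 (0.81 ± 0.18), the adhesion protein Nlgn1 (0.95 ± 0.16) and the thrombospondin Thbs2 (117, 42 and 153 in bulb and 17.1, 27.3, 14 and 14.1 in cortex, 2.32 ± 0.52) were higher.

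Receptors for modulators split, with 4 higher and 5 lower of 16 tested (all genes: 15.5% higher and 16% lower). Cnr1, the cannabinoid receptor, stood at 428, 664, 539 and 586 in cortex and 50, 19.1 and 102 in bulb (-3.54 ± 0.41). Ednrb, an endothelin receptor of astrocytes, stood at 10168, 8837 and 8112 in bulb and 4185, 4473, 4335 and 4435 in cortex (1.05 ± 0.087), and P2ry1, a purine receptor that triggers calcium waves, at 125, 87.9 and 78.6 and 26.3, 8.58, 17.4 and 16.6 (2.49 ± 0.48). Of the 25 channels and pumps tested, 5 were higher and 5 lower, shares near those of all genes (15.5% and 16%). The leak channel Kcnk1, or TWIK-1, stood at 1468, 1347, 1085 and 1293 in cortex and 366, 256 and 217 in bulb (-2.24 ± 0.18), and its relative Kcnk2, or TREK-1, at 1299, 925 and 818 in bulb and 449, 409.6, 478 and 440.4 in cortex (1.16 ± 0.16), so that these leak channels differed in opposite directions. Of 33 patterning signals and targets, 4 were higher, 6 lower and 23 not called (all genes: 15.5% higher and 16% lower). Gli3, a repressor in the Hedgehog pathway, was lower (-1.67 ± 0.13). Wnt5a was higher, at 244, 145 and 234 in bulb and 26.8, 35.1, 23.1 and 26.9 in cortex (2.83 ± 0.34).

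Markers of other cells the samples could hold moved less evenly. Of 11 general neuronal markers tested, 3 were higher in bulb and 2 lower (all genes, here and for the list below: 15.5% higher and 16% lower). Snap25, a synaptic membrane protein, stood at 347, 333 and 763 in bulb and 195, 173, 241 and 129.9 in cortex (1.30 ± 0.29), and Camk2a, a kinase of cortical excitatory neurons, at 378, 420.5 and 264 and 2042, 1926, 1688 and 983 (-2.20 ± 0.23). Of 10 markers of ensheathing glia, which wrap the olfactory nerve, 5 were higher and 2 lower. Frzb, a secreted Wnt inhibitor, stood at 139, 36.3 and 139.9 in bulb and 0.923, 0, 2.27 and 0.640 in cortex (5.65 ± 0.85), Npy, neuropeptide Y, at 91.6, 40.1 and 182 and 0.462, 3.90, 6.05 and 1.92 (4.67 ± 0.79), and Ngfr, the neurotrophin receptor p75, at 50, 70.7 and 21.1 and 3.23, 1.56, 3.40 and 0.640 (3.86 ± 0.83). These 3 were near the limit of detection in cortex and passed the filter only through bulb. Sox10, which ensheathing glia require, was not called (22.2, 24.8 and 74.7 in bulb and 47.6, 30.4, 60.5 and 44.8 in cortex).

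Of 10 endothelial markers 1 was called, in the direction of bulb, or 2 by edgeR, with a median of 1.45 (all genes: -0.057). At an unadjusted limma p under 0.05, 2 were higher and 0 lower. Sums of these markers ran from 425 to 2177 in bulb and from 127 to 1105 in cortex. Of all genes tested, 31.5% were called, 15.5% higher and 16% lower, to be read beside each count in this paragraph. Mural cell markers (1 of 6 called) and meningeal fibroblast markers (0 of 9 by limma and 0 by edgeR, with 0 at an unadjusted p under 0.05) were mostly not called, and no blood marker passed the filter. Of 8 markers of oligodendrocyte precursors, 3 were higher in bulb, or 1 with TMM scaling, among them Olig2 (328, 308 and 297 in bulb and 119.6, 180.2, 134 and 132 in cortex, 1.15 ± 0.21), which some astrocytes express as well. Of ependymal markers, 4 were tested and include Ttr and Otx2, given above. Of 14 immediate early and stress genes tested, which dissociation can raise, 1 was higher and 2 were lower in bulb. Ddx3y, a gene of the Y chromosome, stood above 10 rescaled reads in 4 of the 7 libraries, 2 of each region. With sex by this threshold as a covariate 3427 genes were called.

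Region differences at P14 were compared with those at P1 in a joint fit of 13 libraries. The P1 libraries of bulb and cortex also carry separate runs of library numbers. They held 5473837 to 9062118 reads in bulb and 14070691 to 14513455 in cortex. Region and library set thus cannot be told apart at P1 either, nor in the change from P1 to P14. At P1, 4411 of 12778 genes were called (34.5%), 14.8% higher and 19.8% lower in bulb. The region difference itself changed from P1 to P14 for 2800 of 12778 genes (21.9%), being more positive at P14 for 1656 (13%) and more negative for 1144 (8.95%). The change shares the P14 libraries with the P14 comparison, so it is given gene by gene. Of 3648 genes called at P14 and tested in the joint fit, 1714 were called in the same direction at P1, 326 in the opposite direction and 1608 were not called at P1.

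**Figure D4:**
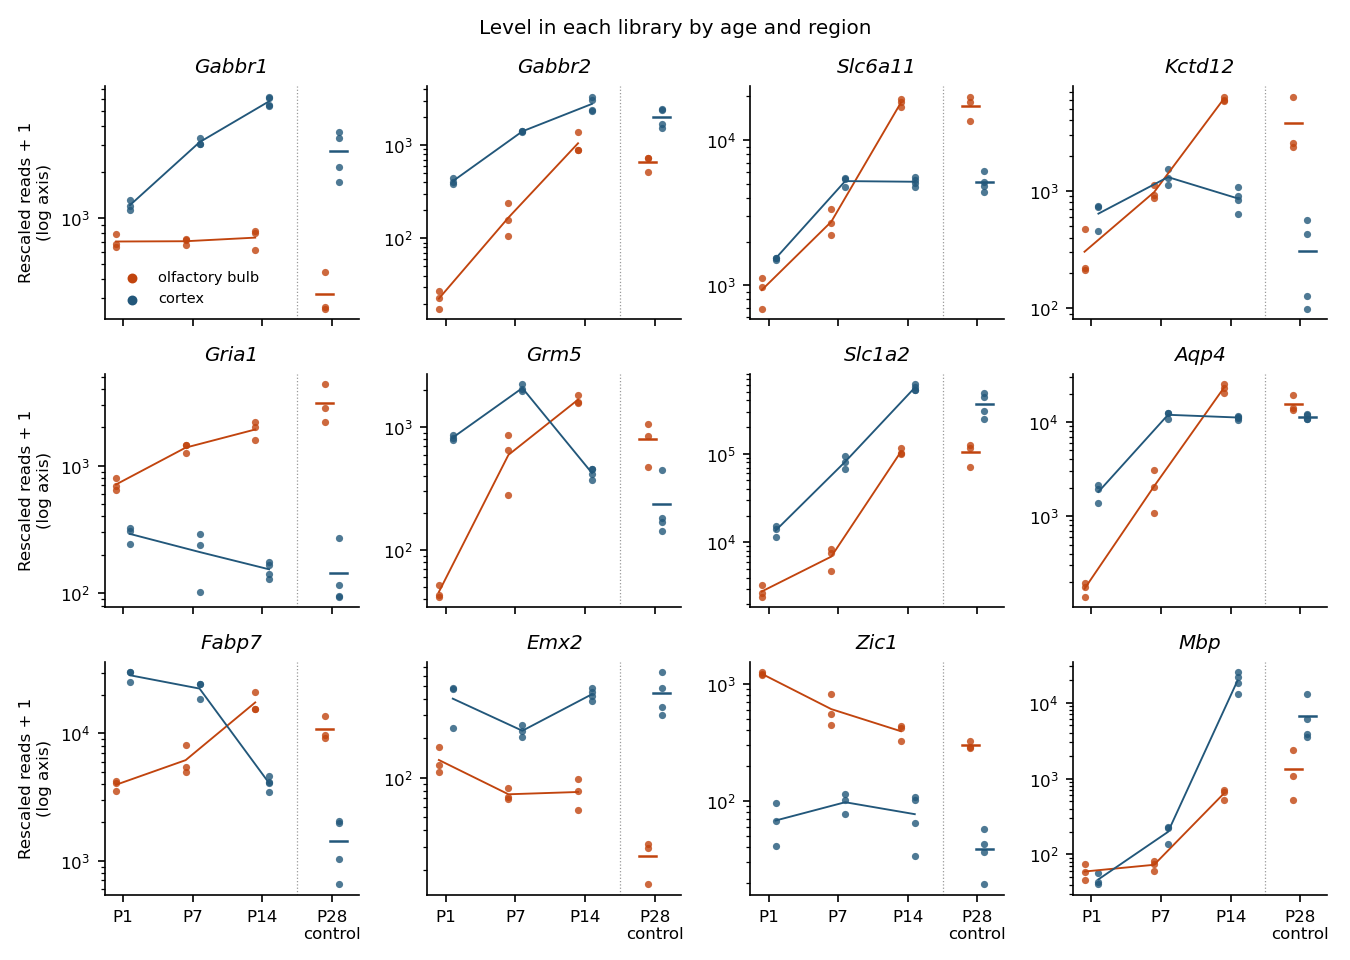
Level of 12 genes in each library of bulb and cortex at P1, P7, P14 and P28 control, as rescaled reads + 1 on a log axis, with points for libraries and lines through the group means. Up to P14 Gabbr1 is higher in cortex at each later age and stays level in bulb, while Fabp7, Aqp4 and Slc6a11 change order between P1 and P14.

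Gabbr1 drew apart between the regions with age. The P1 cortex libraries held 1317, 1199 and 1133 rescaled reads, those of P7 3320, 3030 and 3055, and those of P14 the values given above. In bulb it stood at 788, 681 and 644 in the P1 libraries and at 735, 668 and 719 in the P7 libraries, all within the range of the P14 bulb libraries. The region difference was -0.77 ± 0.12 at P1 and changed by -2.22 ± 0.17 to P14 (adjusted p = 1.59e-07). Gabbr2 did the reverse. Its region difference was -4.21 ± 0.20 at P1, where the bulb libraries held 16.6, 22.2 and 26.1, and it shrank by 2.76 ± 0.27 to P14 (adjusted p = 2.85e-06). Between P1 and P14, Gabbr1 thus differed more at the later age and Gabbr2 at the earlier.

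Most maturation genes were lower in bulb at P1 and differed less, or in the other direction, at P14. Of 26 maturation genes, 23 were lower in bulb at P1, with a median of -2.50, and for 21 the difference was more positive at P14. Of all genes, 14.8% were higher and 19.8% lower at P1, and 13% had a more positive difference at P14. Markers of other cells differed at P1 too. Of 13 neuroblast and interneuron markers 11 were higher in bulb (median 3.27), while 10 of 12 microglial markers (median -3.66) and 6 of 8 markers of oligodendrocyte precursors (median -2.24) were lower, and their part in the P1 differences was not tested. Aqp4 went from -3.39 at P1 to 1.03 at P14 (change 4.39 ± 0.20, adjusted p = 1.56e-09), Slc4a4 from -1.65 to 0.82 and Slc1a3 from -0.59 to 0.57. Gfap, low in bulb at P1 (-7.19), changed by 6.99 ± 0.41. Against this run, Grin2c went from 1.57 at P1 to -2.95 at P14 (change -4.56 ± 0.53), and for Slc1a2 the change of -0.17 was not called (adjusted p = 0.516). Slc1a2 was lower in bulb at both ages, by -2.27 ± 0.12 at P1 and -2.41 ± 0.068 at P14.

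Glutamate and GABA genes were also more often lower in bulb at P1. Of 17 glutamate genes 9 were lower in bulb at P1 and 1 was higher (all genes: 19.8% and 14.8%). A more positive difference at P14 was called for 10 (all genes: 13%). Grm5 went from -4.18 to 1.99 (change 6.14 ± 0.18, adjusted p = 9.97e-12), with 50.6, 42 and 40.6 rescaled reads in bulb and 819.7, 869.7 and 784 in cortex at P1. Each P14 bulb library was above, and each P14 cortex library below, every P1 library of its region. Gria1 was higher in bulb at both ages (1.31 and 3.64), while Gria2 (-0.060, adjusted p = 0.820) and Gria4 (-0.12, adjusted p = 0.783) were not called at P1. Of the GABA genes, 12 of 23 were lower at P1 and 3 higher (all genes: 19.8% and 14.8%). Slc6a11 went from -0.74 to 1.81 (change 2.52 ± 0.18) and Kctd12 from -1.14 to 2.84 (change 3.95 ± 0.37).

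Fabp7 turned from lower to higher in bulb. It stood at 4081, 4247 and 3513 in bulb and 30239, 25388 and 30136 in cortex at P1 and went from -2.84 to 2.10 (change 4.91 ± 0.18, adjusted p = 1.64e-10). Vim (-1.54 to 1.64) and Nes (-2.67 to 1.33) turned in the same way, and so did the receptors Ednrb (-1.81 to 1.05) and P2ry1 (-2.04 to 2.49). Nr2f2 turned from -3.30 to 2.11 (change 5.39 ± 0.59). For the cell cycle list, 0 of 20 members were called higher and 0 lower at P1 by limma (all genes: 14.8% and 19.8%), with a median of 0.40. At an unadjusted limma p under 0.05, 1 was higher and 0 lower. A more positive difference at P14 was called for 9 (all genes: 13%). In cortex Mki67 stood at 699, 519 and 727 at P1 and 45.7, 60.9, 127 and 75.5 at P14, against 929.8, 1185 and 1087 and 342, 808 and 351 in bulb, so it was lower at P14 in both regions, and the region difference changed by 1.89 ± 0.46 (adjusted p = 0.00831).

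Identity factors differed by region already at P1. Of 22 subpallial and bulb factors 18 were higher in bulb at P1 (all genes: 14.8%), with a median of 2.94. The difference was more negative at P14 for 7 and more positive for 4 (all genes: 8.95% and 13%). Sp8 went from 4.37 to 6.96 (change 2.80 ± 0.55). At P1 it stood at 685, 658 and 751 in bulb and 47.6, 30.4 and 25.8 in cortex, above the P14 levels in every library of either region. Zic1 went from 4.27 to 2.48 (change -1.82 ± 0.50) and Etv1 from 3.0 to 1.76 (change -1.28 ± 0.16). For Emx2 (-1.04, adjusted p = 0.0521) the change was not called. Of the cholesterol genes 18 of 25 were lower at P1 as well (all genes: 19.8%). Mbp (0.35 at P1, adjusted p = 0.265) and Mobp (0.33, adjusted p = 0.650) were not called at P1, and their differences changed by -5.31 ± 0.31 and -5.33 ± 0.65, while Itgam (-3.83) and Tyrobp (-4.94) were lower in bulb at P1 too.

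At P28 the regions were compared in libraries that share no sample with P14 and whose numbers interleave between regions. The P28 libraries held 2726163 to 4133495 reads in cortex and 1859933 to 3700620 in bulb. Bulb replicate 2 stood apart, with 0.476% of its reads on Rn45s against 27 to 35.8% in the other 6. The cortex libraries formed 2 pairs. Replicates 1 and 2 held 34.7 and 35.8% on Rn45s and 12354 and 12100 genes with a read. Replicates 3 and 4 held 27 and 27.6% and 14107 and 15141 genes. Of 10700 genes tested, 446 were called (4.17%), 252 higher (2.36%) and 194 lower (1.81%), with 1882 at an unadjusted p under 0.05. The count fell to 323 without bulb replicate 2, with 143 higher and 180 lower. It fell to 287 without bulb replicate 1, and to 292 and 282 without cortex replicates 1 and 2, and it was 844 with DESeq2. Of the genes called at P14, 3465 were tested at P28. The sign was the same for 2759 of them (79.6%), and the 383 that were also called at P28 all had the direction of P14.

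**Figure D5:**
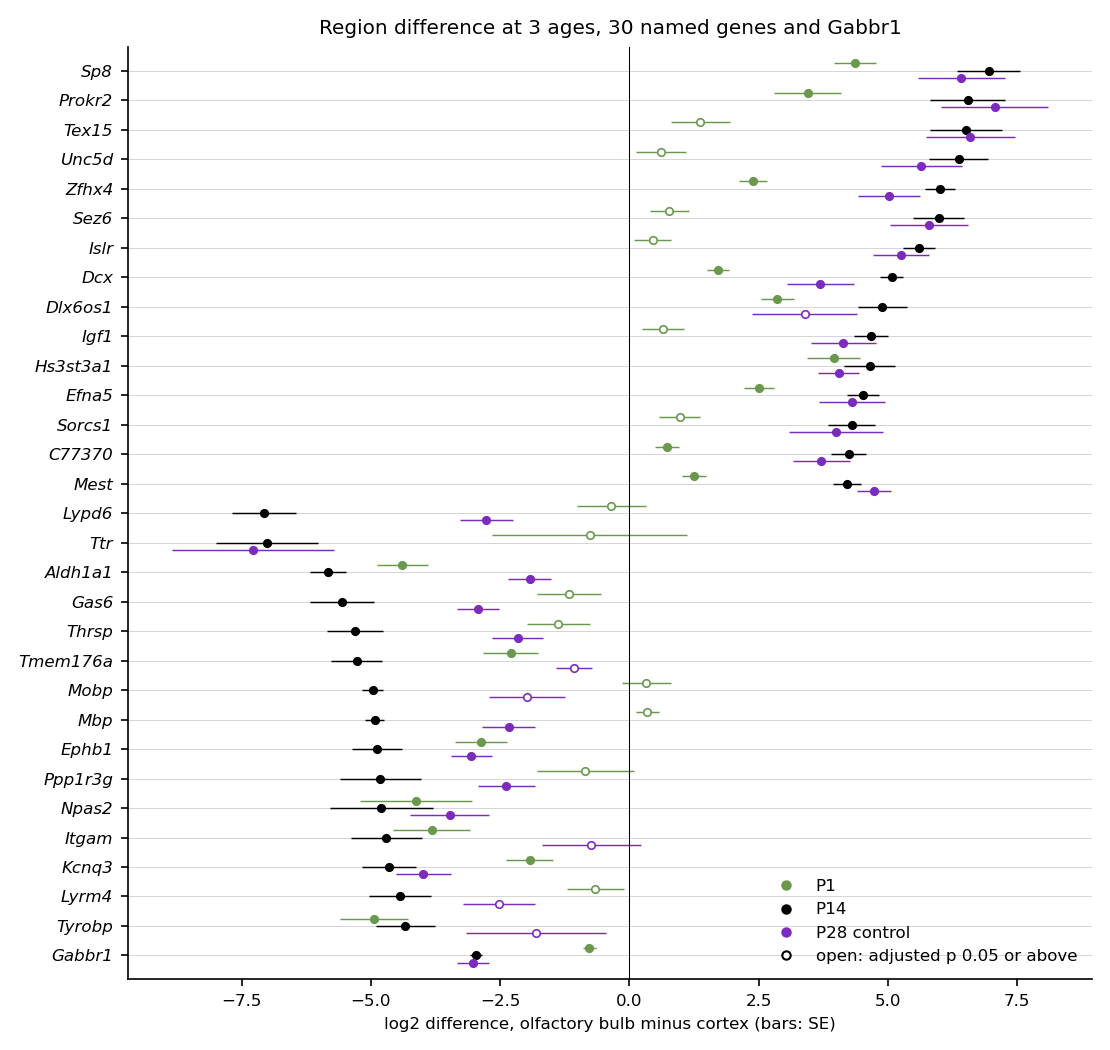
Difference between regions (bulb minus cortex, log2) with its standard error for the 30 named genes and Gabbr1 at P1 and P14 and at P28 in control animals. Filled symbols mark adjusted p under 0.05. All 30 keep the sign of P14 at P28, and 9 rises and 7 falls were called in the same direction at P1.

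Of the 15 largest rises at P14, 15 were positive at P28 and 14 were called, or 13 without bulb replicate 2. Mest, with 773, 1204 and 1332 rescaled reads in bulb and 42.7, 46.5, 30.5 and 40.1 in cortex at P28, differed by 4.73 ± 0.33 (adjusted p = 5.95e-05). Sp8 differed by 6.43 ± 0.84, Prokr2 by 7.07 ± 1.03, Islr by 5.26 ± 0.54 and Efna5 by 4.31 ± 0.64. Each of these 5 lay within 1 log2 unit of its P14 difference. Dcx differed by 3.70 ± 0.65, and Dlx6os1 was the rise not called at P28 (3.40, adjusted p = 0.0915). Of the 15 largest falls, 15 were negative and 10 called, or 7 without bulb replicate 2.

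Several falls had smaller values at P28. Lypd6 differed by -2.77 ± 0.52 at P28 against -7.08 at P14, Aldh1a1 by -1.93 ± 0.42 against -5.82 and Gas6 by -2.92 ± 0.41 against -5.56. Aldh1a1 was not called without bulb replicate 2 (adjusted p = 0.0964), and the change from P14 to P28 was not tested, because genotype label and treatment differ too. Kcnq3 differed by -3.99 ± 0.53. The glial markers Itgam (adjusted p = 0.730), Tyrobp (0.535) and Mobp (0.184) were not called at P28, and Mbp was called with all libraries (-2.34, adjusted p = 0.0229) and not without bulb replicate 2 (-1.80, adjusted p = 0.102).

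Some of the receptor and transporter differences were called at P28 and others were not. Gabbr1 stood at 3360, 3661, 2146 and 1733 in cortex and 444, 256 and 263 in bulb (-3.03 ± 0.31, adjusted p = 3.18e-04, and -2.90 without bulb replicate 2). Its cortex level thus followed the pairs of libraries given above, being higher in replicates 1 and 2 than in replicates 3 and 4. Gabbr2 differed by -1.56 ± 0.26, Kctd12 by 3.87 ± 0.58 and Slc6a11 by 1.78 ± 0.24, and all 3 were called with and without that library. In these control animals the lower level of both receptor subunits and the higher level of Kctd12 and Slc6a11 in bulb was thus measured again. Gria1 differed by 4.55 ± 0.38 (adjusted p = 9.94e-05), Gria4 by 4.88 ± 0.80, Gria3 by 2.32 ± 0.35 and Grm3 by -2.37 ± 0.24, and Grm5 by 1.88 ± 0.41, which was called with all libraries and not without bulb replicate 2 (adjusted p = 0.0795). Of genes called at P14, Grin2b (1.88, adjusted p = 0.126), Cnr1 (-1.86, 0.0511) and Slc4a4 (0.59, 0.263) were not called at P28 with all libraries and kept their sign; without bulb replicate 2 Cnr1 was called (-2.55, adjusted p = 0.00294). Slc1a3, higher in bulb at P14, had a difference of -0.21 at P28 (adjusted p = 0.710). Slc1a2 was called with all libraries (-1.77, adjusted p = 0.0367) and not without bulb replicate 2 (adjusted p = 0.0536).

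Other groups at P28 followed P14 in part. Of all genes tested at P28, 2.36% were called higher and 1.81% lower with all libraries. Fabp7 was higher in bulb (3.09 ± 0.37), Nr2f1 (-2.84 ± 0.40) and Emx2 (-4.05 ± 0.40) were lower, and Zic1 (3.04 ± 0.44) was higher. Of 26 maturation genes 7 were lower and 0 higher, with a median of -0.69, and 5 were lower without bulb replicate 2. Aqp4 was not called at P28 (0.46, adjusted p = 0.362). Of 25 cholesterol and fatty acid genes 9 were lower with and without that library, among them Hmgcs1 (-2.10 ± 0.33) and Cyp51 (-1.90 ± 0.31), with a list median of -0.62. The oligodendrocyte list had a median of -1.45, with 1 of 9 called lower and 4 lower at an unadjusted p under 0.05. Without that library its median was -0.50, with 0 called (1 at an unadjusted p under 0.05, 0 by edgeR). Of 9 cell cycle genes 0 were called higher and 0 lower by limma (0 higher and 1 lower at an unadjusted p under 0.05, and 0 and 0 by edgeR). Of 11 neuroblast and interneuron markers 6 were higher, with a median of 3.70. Without bulb replicate 2, 3 of 8 were higher by limma and 5 by edgeR, with a median of 3.61.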

How the data were processed

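Bulk RNA-seq of labelled astrocytes was taken as deposited by the authors in 1 table per region, as a signal equal to read counts of a gene divided by a factor per library. The submitters' processing notes name STAR 2.5.0a, DESeq2 1.20.0, FastQC, MultiQC and the build mm10, and the counting tool, annotation and strand setting are not given in the sources used here. Dividing each column by its smallest positive value gave whole reads for 100% of values (tolerance 0.01). Rn45s was dropped, the tables were joined by row order (which restored 27 symbols that had turned into dates), and the libraries of each comparison were rescaled together by the median ratio. limma 3.58.1 in R 4.3.3, with a trend, tested log2(rescaled reads + 1) for genes with a mean of at least 10, with Benjamini-Hochberg adjustment over all of them. edgeR 4.0.16 and DESeq2 1.42.0 on the recovered reads, other scalings, pseudocounts, filters and left-out libraries were alternatives. Intervals and floors cover counting error only. The scripts were tested on simulated data.

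The 15 largest rises and falls were named among called genes at or above the median level whose groups do not overlap, without predicted genes, pseudogenes and small RNA hosts, and otherwise genes come from lists. Comparison and lists were chosen with earlier results of these data known. Of 30 such genes, 30 matched RefSeq. P7 and hippocampal libraries gave levels only, and Gabbr1 knockout libraries were not used here, and some list genes are not reported here.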

Additional observations from a re-analysis of the deposited data

Results flagged for a closer look

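Of 131 genes with values in the 4 cortex libraries, 5 had 1 library far from the other 3 by Dixon's criterion, which chance gives for about 1 in 20 groups. Cst3 was 36815 rescaled reads in cortex replicate 3, the lowest, against 41144 in the nearest library. Nes was 154 rescaled reads in cortex replicate 3, the highest, against 83.9 in the nearest library. Otx2 was 0.640 rescaled reads in cortex replicate 4, the highest, against 0 in the nearest library. Sp8 was 3.20 rescaled reads in cortex replicate 4, the highest, against 0.923 in the nearest library. Stat3 was 410.4 rescaled reads in cortex replicate 2, the highest, against 369 in the nearest library.

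For 16 genes whose change from P1 to P14 is given above, the change in the region difference itself passed the test (limma, adjusted p under 0.05). The bulb-minus-cortex difference was more positive at P14 by 6.99 for Gfap, 6.14 for Grm5, 5.39 for Nr2f2, 4.91 for Fabp7, 4.39 for Aqp4, 3.95 for Kctd12, 2.80 for Sp8, 2.76 for Gabbr2, 2.52 for Slc6a11 and 1.89 for Mki67. It was more negative at P14, with changes of -5.33 for Mobp, -5.31 for Mbp, -4.56 for Grin2c, -2.22 for Gabbr1, -1.82 for Zic1 and -1.28 for Etv1.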

How the results depend on the processing

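The P14 count of called genes stayed within 1.5 times 3656 under other pseudocounts, filters, scalings and tools and when any library was left out (2672 to 3933), but was 2300 with a 2-fold requirement and 5755 with all 19 developmental libraries of both tables in the fit. The count for the change from P1 to P14 ranged from 2089 to 3605 with a library left out. At P28 the count ranged from 282 to 408 with a library left out and was 844 with DESeq2. Over 131 single genes and 3105 alternative P14 values, 3088 kept direction and side of the threshold, 14 lost the call, 1 gained it and 2 changed sign. Those that changed sign were Kcnj10 (0.045 with quantile normalization) and Gfap (0.060 with total-read scaling), and the cause was not tested. No paired analysis was possible because the labels carry library numbers and no replicate numbers shared between regions. The bulb libraries hold fewer reads, so a gene listed at 0 there was not detectable at that depth.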

Other observations

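Hippocampal astrocytes of P14, which entered no comparison, lay nearer the cortex than the bulb for Gabbr1, Slc6a11, Gria1 and Emx2 and nearer the bulb for Gabbr2, on the same scaling. Gabbr1 stood at 3770, 4330 and 4844 in the 3 hippocampal libraries and Gabbr2 at 807, 1029 and 797. Slc6a11 stood at 6688, 5792 and 5999, Kctd12 at 2423, 1883 and 2394 and Gria1 at 95.6, 130.3 and 80.2. Emx2 stood at 449, 563 and 259. The hippocampus is pallial tissue like the cortex, and these libraries were not tested against either region.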
